A study of Homo sapiens with 6 samples.

Results

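Epithelial and mesenchymal marker genes were examined for open chromatin in HLF, a poorly differentiated cell line established from a human liver cancer. The 10 genes, out of 20007 protein-coding genes annotated on the main chromosomes, were taken as a set of 5 epithelial markers (CDH1, CDH3, EPCAM, CLDN1 and OCLN) and 5 mesenchymal markers (CDH2, CDH11, VIM, FN1 and SPARC) by name, with earlier results of these data known. Open chromatin was mapped by ATAC-seq, in which the Tn5 transposase inserts sequencing adapters into accessible DNA, so that stacked fragments (a pileup) mark open regions. There were 3 libraries of cells given the vehicle DMSO and 3 of cells given 5 uM SNDX-5613 (revumenib), a small molecule that blocks the interaction of menin with MLL1. The labels give 24 h of treatment for both groups and the study's own text a longer time, so the duration is uncertain. All 6 libraries carry the same batch label and come from 1 cell line, and no gene was altered in either group.

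Epithelial cells are held together by adherens junctions and tight junctions, and mesenchymal cells by looser contacts and a matrix that they secrete themselves. In the epithelial-mesenchymal transition, the cadherin of epithelial junctions is replaced by cadherins of mesenchymal cells, while vimentin filaments and secreted matrix proteins appear. E-box-binding repressors of the SNAI and ZEB families are known to silence junction genes in that transition, and liver cancer lines are known to lie at different points along it.

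Of the 6 lists of accessible regions, 5 held between 88026 and 113675 regions, and that of SNDX-5613 replicate 3 held 40568. The most common background pileup was 0.997 to 1.51 fragments in those 5 libraries and 0.211 in SNDX-5613 replicate 3, where the weakest region called over that background stood 14.2 times above it, against 4.6 to 6.02 times in the other libraries. Weak regions could therefore be seen in 5 libraries and not in the sixth, and values with and without it are given where it mattered. The strength of a region is given below as its percentile, by the -log10 p of the peak caller, among all regions of its own library, with 0 where no region was called. A region with a summit within 1 kb of a transcription start site (TSS) counts as a promoter region. The hepatocyte genes that would mark differentiated liver were mostly closed: ALB, APOA1, APOA2, TTR, TF, FGB and HNF4A had no region at the main (Ensembl canonical) TSS in any library, and SERPINA1 had one in 2 libraries. None of 4 leukocyte and 3 endothelial genes had a region at the canonical TSS in any library.

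At their main start sites, the epithelial markers split into open genes and genes that were closed or weak, and 4 of 5 mesenchymal markers were open. CDH1, which encodes E-cadherin, the defining protein of epithelial adherens junctions, had no region within 1 kb of its canonical TSS in any of 6 libraries. CDH3 and EPCAM had only weak and scattered regions there, and the tight junction genes CLDN1 and OCLN had one in all 6. Among the mesenchymal markers, CDH2, VIM, FN1 and SPARC had regions at the canonical TSS in all 6 libraries, and CDH11 a weak one in the 3 DMSO libraries alone. A region at the canonical TSS in all 6 libraries was thus found for 2 of 5 epithelial and 4 of 5 mesenchymal markers. The share was 58.7% of all protein-coding genes, while 26.0% of all genes had none in any library. With 5 genes of each kind, counts on both sides of that share do not establish a difference between the kinds, which was not tested.

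Promoter entries in the RefSeq table (GRCh38.p14, the hg38 build of the peak files) were found for 6 of the 10 genes, and CDH1, CDH3, EPCAM and CDH11 had none. The 250 bases before the canonical TSS are shown for an open epithelial promoter, CLDN1 (chr3:190322447-190322696, minus strand), and for 2 open mesenchymal promoters, VIM (chr10:17227991-17228240, plus strand) and CDH2 (chr18:28177131-28177380, minus strand). Each is written 5′ to 3′ on the strand of its gene, and capitals mark a CCAAT box, the letters bound by NF-Y. These stretches and the whole 250 bases of OCLN, FN1 and SPARC were searched on both strands for CCAAT, for the SNAI and ZEB E-box CACCTG, for the AP-1 letters TGANTCA, for the TEAD letters GGAATG and for TATAAA.
CLDN1 promoter: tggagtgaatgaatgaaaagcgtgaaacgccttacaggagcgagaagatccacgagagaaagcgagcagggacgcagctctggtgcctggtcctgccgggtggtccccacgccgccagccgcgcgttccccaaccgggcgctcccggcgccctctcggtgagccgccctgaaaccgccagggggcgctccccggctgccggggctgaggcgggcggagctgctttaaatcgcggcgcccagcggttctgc
VIM promoter: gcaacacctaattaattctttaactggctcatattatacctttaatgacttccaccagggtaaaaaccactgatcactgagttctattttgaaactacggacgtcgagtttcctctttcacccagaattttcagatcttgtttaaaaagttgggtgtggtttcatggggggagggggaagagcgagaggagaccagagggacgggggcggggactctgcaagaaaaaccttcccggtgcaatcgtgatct
CDH2 promoter: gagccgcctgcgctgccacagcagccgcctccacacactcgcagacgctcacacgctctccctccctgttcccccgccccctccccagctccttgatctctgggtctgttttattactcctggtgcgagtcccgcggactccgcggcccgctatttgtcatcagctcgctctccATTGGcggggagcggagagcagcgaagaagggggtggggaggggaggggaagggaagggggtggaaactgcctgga

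The open promoters were unlike in base composition. G and C made up 46% of the VIM stretch, which was at or above 15.5% of 21597 such stretches of protein-coding genes. The share was 59.2% in SPARC, 66% in CDH2, 68.8% in CLDN1, 70.8% in OCLN and 76.4% in FN1. The median over all 21597 stretches was 62%, so that VIM and SPARC lay below it. CCAAT was present once in CDH2, at position -76 from the start, and once in FN1, at -162, and 32.9% of all stretches held it. CACCTG was present once, in the epithelial promoter of OCLN at position -133, and 17.0% of all stretches held it. GGAATG was present once in SPARC and in 10.5% of all stretches, and neither TGANTCA nor TATAAA was present in any of the 6 stretches, compared with 5.35% and 8.99% of all.

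CLDN1 (chr3:190305707-190322446, minus strand) encodes claudin-1, which forms the paracellular seal of tight junctions. Its promoter percentile was 83.1, 85.9 and 88.5 under DMSO and 85.7, 86.4 and 66.5 under SNDX-5613. The strongest summit lay between positions -78 and -5 from the start, the region also holds a start of the neighbouring claudin gene CLDN16, and the lowest value was that of the shallow library. OCLN (chr5:69492292-69558104, plus strand) encodes occludin, another membrane protein of the tight junction. Its percentile was 86.9, 90.6 and 92.9 with DMSO and 93.4, 90.6 and 80.1 with SNDX-5613. Over all protein-coding genes, closed ones at 0 included, the median at the canonical TSS lay between 81.7 and 85.6 in the 5 deeper libraries and at 56.5 in SNDX-5613 replicate 3, and both genes lay above it in every library. Over the genes with a region there it lay between 91.9 and 93.4 in the deeper libraries and at 83.5 in SNDX-5613 replicate 3. CLDN1 lay below that value in every library, as did the mesenchymal genes CDH2, VIM and FN1. OCLN and the mesenchymal gene SPARC lay above it in some libraries and below it in others.

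EPCAM (chr2:47345158-47387601, plus strand) encodes a surface glycoprotein of epithelial cells. At its canonical TSS no region was called in DMSO replicates 1 and 3 or in SNDX-5613 replicate 3, and the others gave percentiles of 10.4, 6.05 and 2.22 from pileups of 8, 7 and 7 fragments. The gene nevertheless ranked high when every annotated start was allowed, with percentiles of 93.8, 93.8 and 92.3 under DMSO and 93.8, 95.6 and 91.2 under SNDX-5613. That region lay at -24.2 kb from the canonical TSS, at the start of a longer EPCAM transcript that is also the start of the divergent non-coding gene EPCAM-DT, and the strength of both starts is recorded in the same region.

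CDH1 (chr16:68737292-68835537, plus strand) showed the same dependence on the choice of start. With every annotated start allowed its percentile was 68.5, 83.6 and 78.7 with DMSO and 84.1, 81.9 and 17.0 with SNDX-5613, from a region 86.3 kb inside the gene at an internal TSS and at the start of an overlapping non-coding gene. The region nearest to the canonical TSS was chr16:68738293-68738534, 1.09 kb downstream of it in an exon and so just outside the promoter window. It had percentiles of 38.6, 48.0 and 33.7 under DMSO and 28.0 and 28.1 in SNDX-5613 replicates 1 and 2, and was not called in replicate 3. CDH3 (chr16:68636189-68727468, plus strand), which encodes P-cadherin of basal epithelia, had promoter regions in 3 libraries, the strongest of each at another start, with percentiles of 14.5 in DMSO replicate 1, 3.10 in SNDX-5613 replicate 2 and 4.74 in SNDX-5613 replicate 3. The pileups behind them were 8, 7 and 3 fragments, close to the weakest that were called.

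VIM (chr10:17228241-17237593, plus strand) encodes vimentin, the intermediate filament of mesenchymal cells. Its promoter percentile was 86.9, 92.4 and 90.1 with DMSO and 91.8, 88.4 and 78.6 with SNDX-5613, and pileups there reached 188 to 228 fragments in 4 of the 5 deeper libraries. SPARC (chr5:151661096-151686975, minus strand), which encodes a secreted matrix protein that binds collagen, had the highest mean of the mesenchymal genes, at 93.5, 93.7 and 92.1 with DMSO and at 93.8, 93.7 and 76.6 with SNDX-5613, below VIM in the last of these libraries. FN1, the fibronectin gene (chr2:215360440-215436073, minus strand), had percentiles of 85.6, 86.3 and 88.5 with DMSO and of 89.4, 82.8 and 51.9 with SNDX-5613. In each of these genes the lowest value came from the shallow library. The regions of VIM and FN1 also hold starts of the antisense gene VIM-AS1 and of FN1-DT, and the assay does not tell strands apart.

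CDH2 (chr18:27932879-28177946, minus strand) encodes N-cadherin, which takes the place of E-cadherin in mesenchymal cells. Its promoter percentile was 72.1, 75.1 and 78.2 with DMSO and 74.7, 69.4 and 49.0 with SNDX-5613, below those of VIM, FN1 and SPARC and below the median of all protein-coding genes at the canonical TSS in every library. FN1 lay below that median in SNDX-5613 replicates 2 and 3. CDH11 (chr16:64943753-65126112, minus strand) encodes OB-cadherin of mesenchymal cells and osteoblasts. At its canonical TSS a region with percentiles of 16.9, 31.9 and 27.1 was called in the DMSO libraries, from pileups of 13, 18 and 17 fragments, and none was called in any SNDX-5613 library. With any annotated TSS its values were 16.9, 31.9 and 76.4 with DMSO and 0, 9.38 and 0 with SNDX-5613, the third of them from an intronic region at 51.1 kb whose summit came within 1 kb of an internal start in that library. The canonical start of CDH11 was the only marker promoter of which the presence separated the groups, and 20 of 20007 protein-coding genes (0.1%) had a region at the canonical TSS in all 3 DMSO and in no SNDX-5613 libraries.

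**Figure D1:**
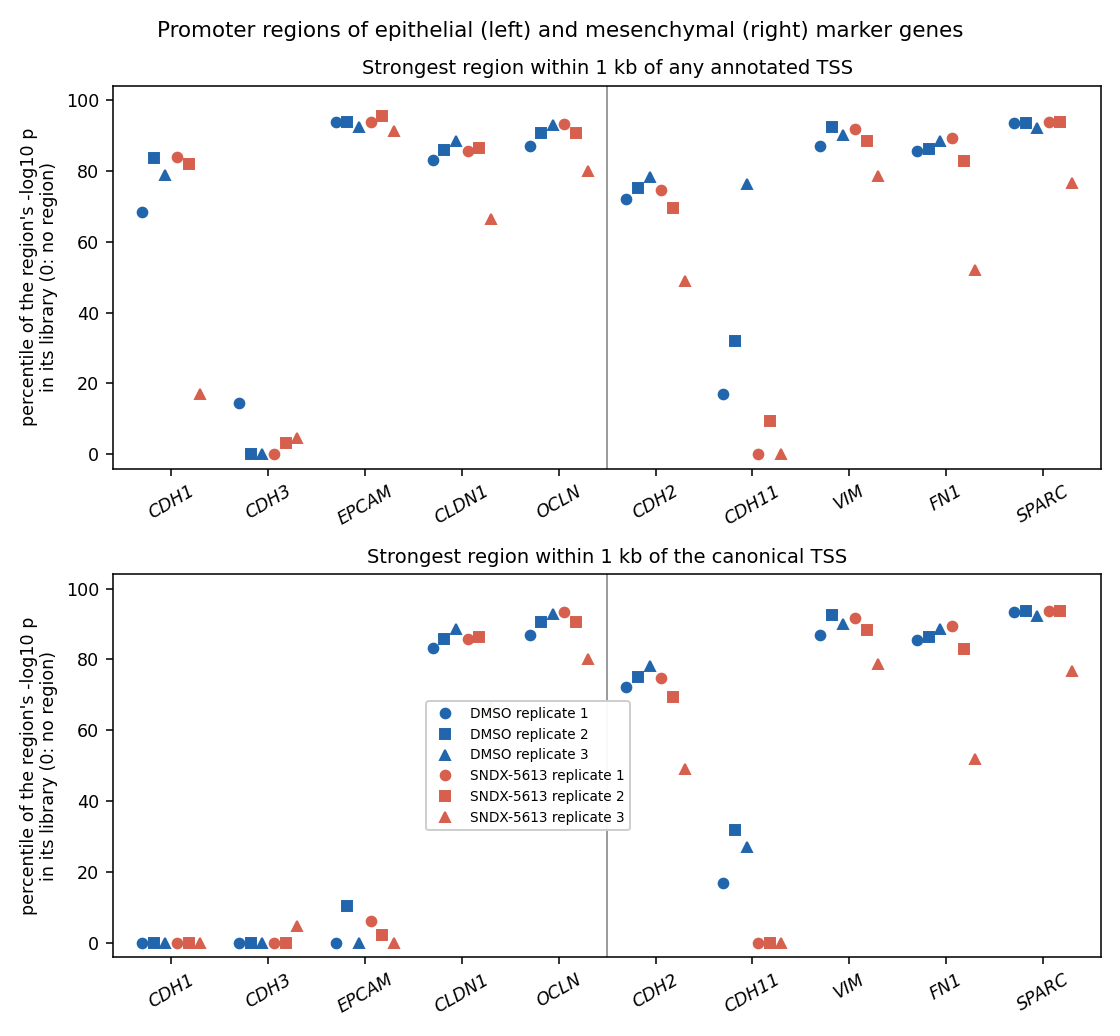
Percentile of the strongest promoter region of each marker in each of 6 libraries, counting any annotated TSS (upper panel) or the canonical TSS alone (lower panel); epithelial genes stand left of the line, mesenchymal genes right of it, and 0 means that no region was called. EPCAM lies high in the upper panel, and CDH1 lies there at 68.5 to 84.1 except for 17.0 in SNDX-5613 replicate 3. Both lie at 0 to 10.4 in the lower panel, while CLDN1, OCLN, CDH2, VIM, FN1 and SPARC have the same values in both panels.

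The contrast of both kinds of marker therefore turned on the definition of the promoter. With any annotated TSS, 4 epithelial and 4 mesenchymal markers had a promoter region in all 6 libraries, as did 63.9% of all protein-coding genes. The median percentile of the mesenchymal minus that of the epithelial markers was 2.42, 0.407 and 0.00311 points under DMSO and 3.69, -3.60 and -14.5 points under SNDX-5613, with a mean of -1.93 ± 6.65 (SD, n = 6). At the canonical TSS it was 85.6, 75.9 and 88.5 points with DMSO and 83.3, 80.6 and 47.2 points with SNDX-5613, with a mean of 76.9 ± 15.2 (SD, n = 6), since 3 of 5 epithelial genes lay at or near 0. All 6 libraries gave the same sign at the canonical TSS and differed in sign with any TSS, and the groups overlapped in both cases. Ranked by fold enrichment in place of the p-value, the contrast with any TSS was -26.0 points, and with regions within 3 kb of a TSS in place of 1 kb it was 1.47 points.

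**Figure D2:**
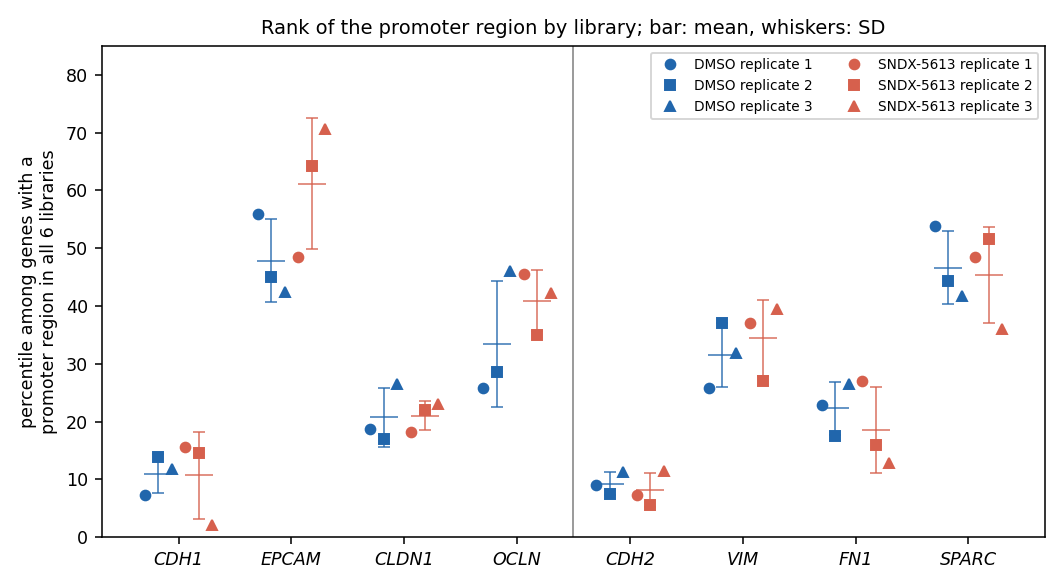
Percentile of the promoter region (any TSS) among the 12790 genes with a promoter region in all 6 libraries, for the 8 markers among them, with one point per library, the mean of 3 libraries as a bar and the SD as whiskers. The DMSO and SNDX-5613 points overlap in every gene.

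To ask whether menin inhibition moved the marker promoters, the 12790 genes with a promoter region in all 6 libraries were ranked against each other in each library, which takes out the number of regions called. CDH3 and CDH11 were not among them. None of the 8 other markers had values that did not overlap between groups, whereas 7.51% of the ranked genes were wholly higher with SNDX-5613 and 6.86% wholly lower. The exact two-sided permutation test cannot give a p below 0.1 with 3 libraries in each group, and after Benjamini-Hochberg adjustment over all ranked genes no gene, marker or other, was called at 0.05.

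EPCAM had the largest difference among the markers by this rank. Its rank among these genes was 56.0, 45.1 and 42.5 with DMSO and 48.6, 64.3 and 70.7 with SNDX-5613, a difference of 13.3 points (exact permutation p = 0.2, adjusted p = 0.799). One SNDX-5613 library lay inside the DMSO range, and the region is the one shared with EPCAM-DT. Ranked by fold enrichment, EPCAM differed by 0.336 points only, OCLN by 12.8 and FN1 by -11.0. By percentile among all regions of each library, EPCAM differed by 0.262 points. OCLN ranked 25.8, 28.6 and 46.0 with DMSO and 45.6, 35.1 and 42.2 with SNDX-5613, 7.50 points apart (exact permutation p = 0.4, adjusted p = 0.894). The remaining 6 genes differed by between -3.67 points, in FN1, and 2.89 points, in VIM, with exact permutation p of 0.5 to 1. The median absolute difference over all ranked genes was 4.37 points. All of these 6 genes, the epithelial CDH1 and CLDN1 and the mesenchymal CDH2, VIM, FN1 and SPARC, differed by less than that median. Without SNDX-5613 replicate 1, EPCAM (19.6 points) and FN1 (-7.88 points) no longer overlapped between groups, as did 13.5% of all ranked genes upwards and 13.3% downwards. Without SNDX-5613 replicate 3 this held for CDH1 (4.23 points) and CDH2 (-3.06 points), and for 12.4% and 12.6% of all ranked genes.

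Regions of the 6 libraries that overlapped were merged into 166021 sites, of which 125 had their summit in the body of a marker or within 10 kb of it, 48 at epithelial and 77 at mesenchymal genes. A peak in all 6 libraries was found at 16 of the 48 and at 14 of the 77 sites. CLDN1 had a single site, at its promoter, and CDH2 had 49, of which 42 were intronic.

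The strongest site outside the promoters differed in kind from gene to gene. In the windows of CDH1 (chr16:68843271-68844310), OCLN (chr5:69559794 onwards) and SPARC (chr5:151652100 onwards) it was the promoter of another gene, TANGO6, GTF2H2C and a non-coding gene, with mean percentiles of 93.7, 93.0 and 89.6. At EPCAM it lay at -34.0 kb from the canonical TSS with a mean percentile of 79.4, at VIM at 10.7 kb, past the gene's end, with 60.2, and at FN1 at -6.60 kb with 15.7 and a peak in 3 libraries. CDH2 and CDH11 had theirs in introns, 111.6 and 51.1 kb from the start, with mean percentiles of 77.9 and 76.0 and peaks in all 6 libraries. The intron of CDH11 was thus open in both groups while its start was weak or closed.

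CDH3 and CDH1 share the site chr16:68732068-68732643, which lies at -5.13 kb from the closed CDH1 start and past the end of CDH3. Its percentile was 77.6, 85.4 and 86.9 with DMSO and 88.8, 89.3 and 81.0 with SNDX-5613. Ranked among the 33405 sites called in every one of the 6 libraries, it stood at 46.0, 52.6 and 62.7 with DMSO and at 64.3, 69.0 and 77.0 with SNDX-5613, wholly higher. It was the only one of the 30 marker sites in all 6 libraries with ranks that did not overlap between groups, compared with 8.54% of all such sites that were wholly higher and 8.08% that were wholly lower. Ranked by fold enrichment, it overlapped. Without SNDX-5613 replicate 3, 45 marker sites had a peak in all 5 libraries, of which 8 were wholly higher and 7 wholly lower with SNDX-5613, compared with 14.3% and 14.4% of all sites. Of the 45 sites, 24 were at epithelial and 21 at mesenchymal genes. All of those 8 were at CDH1, CDH3, EPCAM or OCLN, and the 7 were at CDH1, EPCAM, OCLN, CDH2, CDH11 and SPARC.

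No marker site was gained, that is, found in all SNDX-5613 and in no DMSO libraries, while 0.147% of all sites were. A gained site had to be called in the shallow SNDX-5613 replicate 3, so few could be found. Without that library, 1 of 124 marker sites was gained, a weak one at FN1 with percentiles of 9.37 and 11.1, compared with 2.43% of all sites. Of the 125 sites, 5 were lost, that is, found in all DMSO and in no SNDX-5613 libraries, compared with 1.18% of all sites. One was the CDH11 start at chr16:65121843-65122109 and 4 were in introns of CDH2. The CDH2 sites were chr18:28039200-28039367, chr18:28095147-28095361, chr18:28131978-28132537 and chr18:28133878-28134100, 138, 81.9, 44.7 and 43.1 kb inside the gene. They were weak or of medium strength, with percentiles of 36.9, 49.5 and 55.1 at the first, 42.4, 37.3 and 43.6 at the second, 22.7, 0.248 and 3.09 at the third and 12.6, 30.8 and 22.8 at the fourth. The pileups behind them were 9 to 26 fragments, where 6 or 7 sufficed for a call. The 4 sites were separate regions of 1 gene and shared their libraries. All 5 sites lay in the authors' consensus regions of the DMSO group, and the second one lay in those of the SNDX-5613 group as well. The same 5 were lost without SNDX-5613 replicate 3, compared with 1.23% of all sites. Leaving out DMSO replicate 1, DMSO replicate 3 or SNDX-5613 replicate 2 gave 10 lost sites each, compared with 3.10%, 2.59% and 2.26% of all sites, and when only the 40568 strongest regions of each library were kept, none was.

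Sequence is shown for the strongest lost CDH2 site and for the strongest CDH2 site outside the promoter that was kept in all 6 libraries, as 200 bases centred on the summit, read from hg38 on the plus strand (CDH2 is on the minus strand), at chr18:28039182-28039381 and chr18:28065480-28065679. Capitals mark the AP-1 letters TGANTCA, the TEAD letters GGAATG and CCAAT on either strand.
CDH2 lost intronic site: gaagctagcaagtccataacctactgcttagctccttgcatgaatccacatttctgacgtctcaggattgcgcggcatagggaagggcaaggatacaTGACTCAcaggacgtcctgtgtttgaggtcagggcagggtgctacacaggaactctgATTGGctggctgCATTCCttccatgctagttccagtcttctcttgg
CDH2 kept intronic site: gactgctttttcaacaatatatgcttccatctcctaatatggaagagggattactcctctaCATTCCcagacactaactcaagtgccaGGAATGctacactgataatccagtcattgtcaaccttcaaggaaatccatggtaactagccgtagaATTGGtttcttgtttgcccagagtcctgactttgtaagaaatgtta

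The lost site held the AP-1, TEAD and CCAAT letters once each, and the kept site held GGAATG at 2 places and CCAAT once. Across the 4 lost CDH2 sites, 2 held TGANTCA and 2 held CCAAT, compared with 15.5% and 24.2% of all 166021 sites in windows of the same length. Among all 49 CDH2 sites TGANTCA was found in 11 and CCAAT in 12, and CACCTG in 8, compared with 17.0% of all sites.

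The lost sites were part of a wider difference at CDH2. In the window of the gene, 29, 37 and 32 regions were called under DMSO and 19, 18 and 5 under SNDX-5613. Per 100000 regions of each list these were 32.9, 32.5 and 33.2 with DMSO and 17.7, 18.6 and 12.3 with SNDX-5613, or 32.9 ± 0.327 and 16.2 ± 3.38 (SD, n = 3 libraries each). The groups did not overlap, and the ratio of SNDX-5613 to DMSO was 0.492, or 0.551 without SNDX-5613 replicate 3. This measure was chosen after its values were seen. Over the 1355 protein-coding genes with at least 10 regions per library on average, the median ratio was 0.927, and 26 genes (1.92%) had a ratio at or below that of CDH2. Wholly lower values were found in 21.3% of these genes and wholly higher ones in 3.32%, so that the lack of overlap at CDH2 was common among genes with many regions (exact permutation p = 0.1, adjusted p = 0.406). Regions on the whole of chromosome 18 did not show it, with 2489 to 2593 per 100000 with DMSO and 2548, 2538 and 2189 with SNDX-5613. Chromosome 16, which carries CDH1, CDH3 and CDH11, had 3738, 3537 and 3696 with DMSO. It had 3844, 3866 and 3964 with SNDX-5613, wholly higher (exact permutation p = 0.1), and the groups overlapped on chromosome 2.

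**Figure D3:**
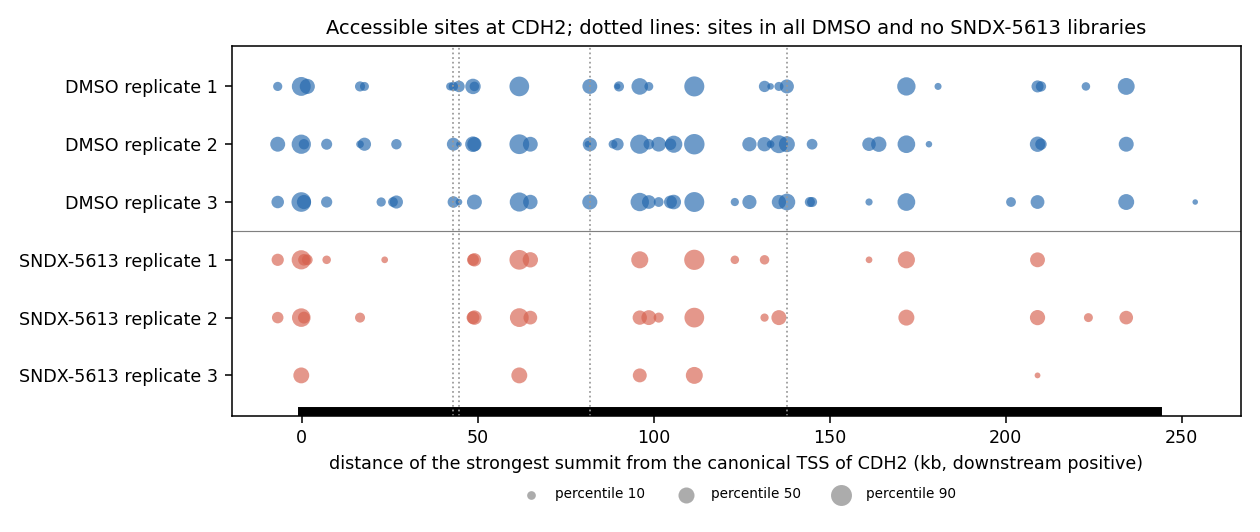
Sites at CDH2 by their distance from the canonical TSS in kb, one row per library, with the area of a point growing with the percentile of the region; the black bar is the gene and dotted lines mark the 4 lost sites. The strong sites recur in all rows, and the weaker ones are denser in the 3 DMSO rows than in the 3 SNDX-5613 rows.

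Of the 49 CDH2 sites, 26 (53.1%) were called in DMSO libraries alone and 2 (4.08%) in SNDX-5613 libraries alone, whereas over all sites the shares were 23.8% and 19.7%. The 26 sites were weak: 13 were found in 1 library, and the highest percentile that any of them reached was 58.0, with a median of 17.4. The 21 sites found in both groups reached 85.5, with a median of 43.9. With the 40568 strongest regions of each list, the difference of the groups was -4.11 regions per 100000 in place of -16.7, and the groups overlapped (exact permutation p = 0.3). In the window of CDH11, 6, 6 and 5 regions were called with DMSO and 5, 4 and 2 with SNDX-5613. Per 100000 regions these were 6.82, 5.28 and 5.19 against 4.66, 4.13 and 4.93, wholly lower with a ratio of 0.794, from fewer regions than the mean of 10 per library required for the test. The other 8 genes had ratios of 0.812 to 1.45 between groups and overlapped. The 1.45 was that of CLDN1, which had 1 region in every library, so this ratio followed the lengths of the lists alone. Its value was 2.47 per 100000 in the short list of SNDX-5613 replicate 3, and 0.932 and 1.03 in replicates 1 and 2.

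**Figure D4:**
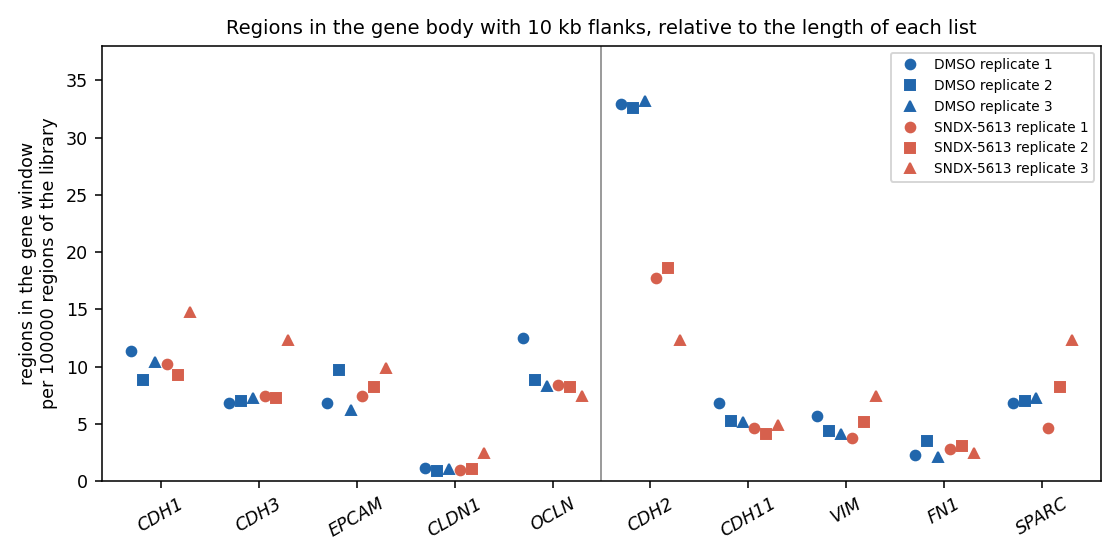
Regions in the window of each marker (gene body with 10 kb on both sides) per 100000 regions of the library, one point per library. The DMSO points of CDH2 lie at 32.5 to 33.2 and its SNDX-5613 points at 12.3 to 18.6, and the other markers hold at most 14.8 in any library. That value is CDH1 in the short list of SNDX-5613 replicate 3, from 6 regions, where the other libraries had 9 to 11.

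Density, the number of regions per 10 kb of window, differed more between single genes than between both kinds of marker. VIM (1.48 ± 0.278) and SPARC (1.42 ± 0.300) were the densest and CDH11 (0.231 ± 0.0744), FN1 (0.261 ± 0.110) and CLDN1 (0.272 in all libraries) the sparsest, as mean ± SD over 6 libraries, with CDH1 (0.789 ± 0.148), CDH2 (0.880 ± 0.439), OCLN (0.952 ± 0.325) and EPCAM (1.15 ± 0.385) between them. VIM and SPARC lay within their spread of each other, as did the 3 sparsest genes. The median of all protein-coding genes was 0.546 ± 0.135. The median mesenchymal marker was CDH2 in every library, so that the mesenchymal minus epithelial density, 0.101 per 10 kb on average, followed that gene. The mesenchymal median was 1.09, 1.40 and 1.21 with DMSO and 0.717, 0.679 and 0.189 with SNDX-5613. The epithelial median was 0.846 in each DMSO library and 0.930, 0.761 and 0.449 with SNDX-5613. The difference was thus positive in every DMSO library and negative in every SNDX-5613 library. These densities were not scaled to the length of each list. The sign of the mean was not stable either, at -0.00586 with a -log10 q of at least 3, -0.0922 with no flank and -0.212 with equal numbers of regions.

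Further junction and mesenchymal genes were taken from lists of their functions, chosen with earlier results of these data known. At the canonical TSS, a region in all 6 libraries was found for 13 of 35 further epithelial genes (37.1%) and for 20 of 32 further mesenchymal genes (62.5%), and 17 and 6 of them had none in any library. The median of the mean percentiles was 0.547 and 72.0, against 58.7% and 78.8 over all protein-coding genes. The lists differed within each kind, and 7 of 16 matrix genes (43.8%) were open in all libraries compared with 5 of 12 desmosome and keratin genes (41.7%). With any annotated TSS the counts were 17 of 35 and 23 of 32, and the medians 39.6 and 73.1.

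Among 12 tight junction and polarity genes, 5 had a region at the canonical TSS in all 6 libraries and 6 in none, and with any TSS F11R, a junctional adhesion molecule (mean percentile 88.4), and LLGL2, a polarity protein (85.8), ranked highest. Among 12 desmosome and keratin genes the counts were 5 and 3, and JUP, which encodes plakoglobin, had a mean percentile of 99.5 and KRT8, a keratin of simple epithelia, 96.3. Of 11 epithelial regulators and surface proteins only 3 were open at the canonical TSS in all libraries and 8 in none. The splicing regulator ESRP2 had a mean percentile of 98.3 by another start and 0 at the canonical TSS, while the transcription factor GRHL1 had 96.3 by both.

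The mesenchymal cytoskeleton genes were the most uniformly open, at the canonical TSS 7 of 8 in all libraries, with MYL9 (89.1) and TPM2 (88.3) highest and CNN1 (42.1) and ACTA2 (68.1, and 0 at the canonical TSS) lowest with any TSS. Of 16 matrix genes 7 were open in all libraries and 4 in none, with the collagen genes COL1A1 (93.4) and COL5A1 (91.8) highest. Of 8 mesenchymal surface genes 6 were open in all libraries, with PDGFRB (90.8) and NT5E (85.5) highest, THY1 at 21.8 and PDGFRA at 0. Of 17 other cadherins 3 were open at the canonical TSS in all libraries and 6 in none, and CDH15 (84.3) and CDH18 (84.0) ranked highest with any TSS. Of 6 transcription factors of the transition 5 were open in all libraries, with SNAI1 (89.1) and ZEB1 (75.4) highest and SNAI2 (70.9) and TWIST2 (6.74) lowest.

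**Figure D5:**
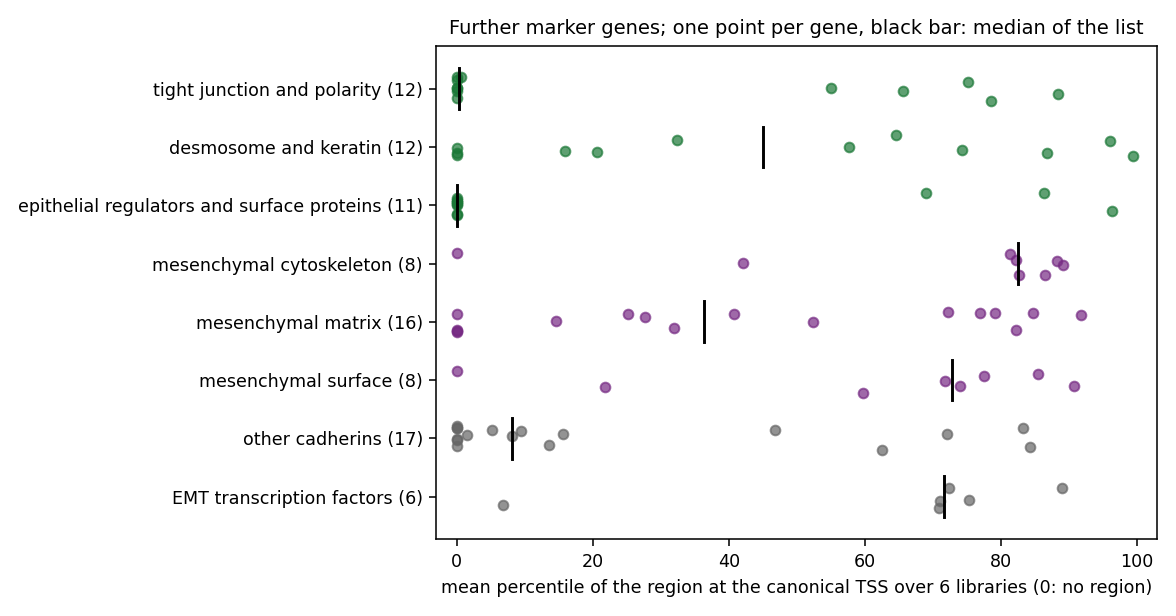
Mean percentile over 6 libraries of the region at the canonical TSS for the genes of 8 further lists (number of genes in brackets), with the median of each list as a black bar. The medians are 0.273, 45.0 and 0 for the epithelial lists and 82.5, 36.4 and 72.9 for the mesenchymal lists.

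Of these genes, 17 epithelial and 23 mesenchymal ones had a promoter region in all 6 libraries with any TSS and could be ranked between groups. Wholly higher values with SNDX-5613 were found in 2 and 2 of them, compared with 7.51% of all ranked genes, and wholly lower values in 1 and 1, compared with 6.86% (PATJ, -2.84 points, and LOX, -1.76 points). By more than 5 points, LLGL2 (15.2), KRT8 (13.2), TAGLN of smooth muscle (12.8) and TNC, which encodes the matrix protein tenascin C (5.20), were higher, as was CDH15 (17.96), and CDH12 (-17.7) and TWIST1 (-5.77) were lower. Each of them had an exact permutation p of 0.1 and an adjusted p of 0.696, so none was called. The shifts of LLGL2 and CDH12 came from regions at starts other than the canonical TSS. At the canonical TSS, the percentile of LLGL2 among all regions was 68.9 to 73.4 with DMSO and 45.8 to 70.6 with SNDX-5613, which overlapped. That of CDH12 was 50.7 to 53.04 with DMSO. It was higher, at 62.8 and 61.7, in SNDX-5613 replicates 1 and 2, and no region was called in replicate 3.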

How the data were processed

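ATAC-seq peak files of 6 HLF libraries were analysed, with the groups taken from the labels. Per the labels and the study's methods, the authors trimmed reads (Trim Galore 0.6.7), aligned them to hg38 (Bowtie2 2.3.4.1), marked duplicates (Picard 2.20.0), used SAMtools and deepTools 3.5.4, and called peaks per library with MACS2. The shift of Tn5 cut sites is not given in the sources used here. The deposited values are the ratio of pileup to local background (fold enrichment) and the -log10 p and -log10 q of each summit. Deposited consensus regions of each group, with a -log10 value, served for overlap only. Read counts are not among the values used, so the count test of the study was not run.

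Summits with the same start and end were taken as 1 region with its strongest summit. Gene models were from GENCODE 44. Pileups were recovered as whole numbers from the fold enrichment and -log10 p, within a tolerance in -log10 p of 0.002, for 100% of regions. Sites were merged from regions overlapping by 1 base. Promoter ranks were compared by an exact two-sided permutation test of group means with Benjamini-Hochberg adjustment over 12790 genes. Functions were tested on simulated data (Python 3, numpy, pandas). Per the study's methods a replicate was 1 dish of cells divided between treated and untreated groups. Libraries with the same number were therefore taken as pairs, in the replicate block alone. Their deviations from the group means correlated by only 0.0375, -0.0106 and 0.00926 over the ranked genes. The main test has no replicate block, as none is stated for the study's own test, and p-values measure only the spread between libraries. One gene of the hepatocyte list is not reported here. All 10 markers were described. Of each further list, the 2 genes with the highest and the 2 with the lowest mean percentile were named (those tied at 0 were counted only), with genes that did not overlap between groups by at least 5 points, and of the sites the strongest outside each promoter and all gained or lost ones. The markers, lists and measures were chosen with earlier results of these data known. Alternatives were a -log10 q of at least 3, equal numbers of regions, other start sites and distances, rank by fold enrichment or in full lists, other site definitions, a replicate block, and leaving out each library.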

Additional observations from a re-analysis of the deposited data

How the results depend on the processing

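The lists hold called regions only, and a closed promoter means that none was called at the depth of that library, which was least in SNDX-5613 replicate 3. With only the canonical TSS, the number of epithelial markers with a promoter region in all libraries was 2 in place of 4, and the mesenchymal minus epithelial percentile was 76.9 points in place of -1.93, since CDH1 and EPCAM have their regions at other starts. It was -26.0 points ranked by fold enrichment, where the number of sites ranked higher was 0 in place of 1, and 1.47 points with a promoter distance of 3 kb, where 5 mesenchymal markers had a promoter region in all libraries, and the cause was not tested. With a -log10 q of at least 3, 3 epithelial markers had one. With equal numbers of regions, no site was lost in place of 5, the density difference was -0.212 in place of 0.101 per 10 kb, and the CDH2 difference was -4.11 in place of -16.7 regions per 100000, as that setting removes weak regions.

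Leaving out 1 library at a time, the mesenchymal minus epithelial percentile ranged from -3.06 to 0.585 points, the density difference from 0.0181 to 0.167 per 10 kb and the CDH2 difference from -17.9 to -14.8. Both kinds of marker kept 4 with a promoter region in all remaining libraries. Marker promoters that did not overlap between groups numbered 0 to 2 of 8 (EPCAM without DMSO replicate 1, OCLN without DMSO replicate 3, VIM without SNDX-5613 replicate 2, EPCAM and FN1 without SNDX-5613 replicate 1, CDH1 and CDH2 without SNDX-5613 replicate 3), where 10.9% to 13.5% of all ranked genes did so in each direction. Gained sites numbered 0 to 1, the 1 at FN1 without SNDX-5613 replicate 3, where 2.43% of all sites were gained, and lost sites 5 to 10, where 1.23% to 3.60% of all sites were lost. Sites ranked higher numbered 1 to 8 and those ranked lower 1 to 7, the highest without SNDX-5613 replicate 3, where 14.3% and 14.4% of all sites were.

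The replicate block, which pairs libraries of the same number, was run for the promoter percentiles and the CDH2 window, by exact sign flips of 3 differences with a smallest p of 0.25. No marker promoter separated (0), EPCAM had an adjusted p of 0.923, the CDH2 difference was -16.7 (exact sign-flip p = 0.25), and no call changed among these. Over all alternatives the adjusted p of the markers ranged from 0.711 to 1. EPCAM and FN1 kept their direction in 12 of 12 and 13 of 13 alternatives, but not their size. The difference ranged from 0.262 to 19.6 points in EPCAM and from -12.1 to -0.750 in FN1. All alternatives reuse the same 6 libraries, so a kept direction is not separate evidence. CDH1 and CLDN1 changed direction in 4 of 11 and 5 of 13 alternatives, as did CDH2 and SPARC in 2 and OCLN and VIM in 1 of 13.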
